A study of Homo sapiens with 24 samples.

Results

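The RNAs described are the H/ACA small nucleolar RNAs (SNORA genes) and the small Cajal body RNAs (SCARNA genes). All probes whose annotated gene symbol begins with SNORA or SCARNA were taken, and the genes that contain them were left out. This gave 126 of the 47323 probes on the array, which stand for 125 of the 20046 genes named by the annotation. Of these probes 102 were for SNORA and 24 for SCARNA genes. RNA came from HEK293, an established human embryonic kidney cell line grown in phenol-free medium with serum, and was measured on Illumina bead arrays. Control cells had received water, and treated cells 10 µM of MOTS-c, a short peptide whose reading frame lies in mitochondrial DNA. Cells of each kind were harvested after 4 h or 72 h, which gave 4 groups of 6 arrays: 4 h control, 4 h MOTS-c, 72 h control and 72 h MOTS-c. Whether the 6 replicates of a group were separate cultures is not given in the sources used here, so p-values measure only how far these samples spread, and that spread may be technical.

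H/ACA small nucleolar RNAs pair with ribosomal RNA and select the uridines that the enzyme dyskerin turns into pseudouridine. Each is bound by dyskerin (DKC1) and the core proteins NHP2, NOP10 and GAR1. Small Cajal body RNAs do the same kind of work on spliceosomal RNAs within Cajal bodies, and some of them are of the C/D box type, which guides methylation, or carry both types of domain. In human cells most of these RNAs are cut from introns of host genes, many of which encode ribosomal proteins or translation factors, or are noncoding genes whose exons have no known product. Mature small nucleolar RNAs carry no poly(A) tail, whereas the labelled RNA here was made from cDNA primed with oligo-dT. Whether a probe read the mature RNA, a precursor or the intron of its host transcript was not tested. In bulk RNA, fewer cells of a type and less RNA per cell cannot be told apart.

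A probe was kept for testing when its detection p, the chance of its signal among the negative controls of the array, was under 0.05 on at least 6 of the 24 arrays. Of the 126 probes 44 passed (34.9%, against 59.4% of all probes with 1 gene), 37 of them SNORA and 7 SCARNA. Another 20 were detected on 1 to 5 arrays, and 62 on none. Among the 44 tested members 19 were detected on all 24 arrays. The undetected probes included the probe for SNORA73A (also called U17), which acts in ribosomal RNA cleavage rather than in modification, and one of the 2 probes for SNORA73B. The other SNORA73B probe was detected on 3 arrays. The annotated RNAs of the 44 tested members were 125 to 353 bases long on GRCh38.p14.

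Group means of the mean bead intensity were 516 in 4 h controls, 520 in 4 h MOTS-c cells, 459 in 72 h controls and 483 in 72 h MOTS-c cells. The median number of members detected per array was 37.5 in 4 h controls (range 25 to 45), 42.5 in 4 h MOTS-c cells (37 to 46), 38.5 in 72 h controls (35 to 45) and 42 in 72 h MOTS-c cells (35 to 44). The lowest number, 25, came from replicate 2 of the 4 h controls. The members' median log2 fold change at 4 h and the number above 0 are therefore also given without that array. Of 10 genes known to be expressed in HEK293 cells, including the neurofilament genes NEFL, NEFM and NEFH, 9 were detected on all 24 arrays and PAX2 on 8. All 3 keratinocyte markers were detected on no array. Of the endothelial markers PECAM1 and CDH5 were on no array, VWF on 6 and KDR on 3. Of the fibroblast markers COL1A1 and LUM were on all 24, COL3A1 on 8, DCN on 6 and COL1A2 on 1. Leukocyte CD14 was on 24, LYZ on 20, PTPRC on 3 and CD3E on 0, and hepatocyte ALB was on 24, TTR on 1 and APOA1 on 0.

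Each member that was called after 72 h of MOTS-c lies within the annotated bounds of another gene. The results below set each RNA beside the gene that contains it, so the sequences around the starts of 4 of those genes are shown. Those of MAGED4, which contains SNORA11D, and TBRG4, which contains SNORA5C, are not shown. Each line gives 100 bases before the annotated start in lower case and the first 20 transcribed bases in capitals, 5′ to 3′, from RefSeq on GRCh38.p14. CWF19L1 contains SNORA12, TAF1D contains SNORA8 and SNORA18, SNHG12 contains SNORA61 and EIF4A1 contains SNORA67. The windows are chr10:100267619-100267738 on the minus strand for CWF19L1, chr11:93741476-93741595 on the minus strand for TAF1D, chr1:28581854-28581973 on the minus strand for SNHG12, and chr17:7572725-7572844 on the plus strand for EIF4A1.
CWF19L1: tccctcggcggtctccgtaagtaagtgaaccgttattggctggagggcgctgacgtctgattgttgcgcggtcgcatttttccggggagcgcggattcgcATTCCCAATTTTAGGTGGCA
TAF1D: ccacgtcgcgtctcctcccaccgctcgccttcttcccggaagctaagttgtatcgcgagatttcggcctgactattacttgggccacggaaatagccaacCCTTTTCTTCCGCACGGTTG
SNHG12: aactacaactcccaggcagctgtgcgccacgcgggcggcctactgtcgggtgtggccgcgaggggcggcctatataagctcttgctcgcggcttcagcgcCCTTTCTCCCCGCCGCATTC
EIF4A1: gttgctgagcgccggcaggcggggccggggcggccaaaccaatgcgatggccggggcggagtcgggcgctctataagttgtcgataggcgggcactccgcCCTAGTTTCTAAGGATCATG

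A C at the start followed by an unbroken run of C or T is the feature by which genes of the translation machinery are grouped as TOP genes. From their annotated first base, TAF1D and SNHG12 each carried an unbroken run of 11 such bases and EIF4A1 a run of 3, while CWF19L1 began with A. A run of at least 5 bases that began with C stood at the start of 4.07% of the 35116 promoters in the RefSeq table. The genes containing tested members numbered 37, of which 30 were in the table, and 11 of these 30 had such a run, among them RPL10, RPL12, RPL27A, RPS12, RPSA and EEF1B2. The letters CACGTG, which read the same on both strands, occurred in 7.26% of all 300-base promoter windows, in none of the windows of CWF19L1, TAF1D, SNHG12 and EIF4A1, and among the 30 in that of TOMM20 alone. Each of the 30 genes was counted if any of its promoters in the table matched, whereas the shares over all promoters are per promoter. These matches describe the letters only.

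After 72 h of MOTS-c, 6 of the 44 tested members rose and 1 fell. SNORA12 rose 2.54-fold, a log2 fold change of 1.35, and SNORA8, SNORA18 and SNORA11D rose by 0.58, 0.48 and 0.38 on the log2 scale. In each of these 4 all 6 MOTS-c arrays lay above all 6 control arrays. The share of all tested probes separated in this way is not given here, so the separation is a description of these 4 only. SNORA61 and SNORA5C rose by less, and SNORA67 fell. None of the 7 SCARNA members passed the test at 72 h. Calls were made with limma at a Benjamini-Hochberg adjusted p under 0.05 over all 17873 tested probes, of which 43.5% were called at 72 h, 22.1% higher and 21.4% lower. The members' 7 of 44 (15.9%) lay below that background, with 13.6% higher and 2.27% lower. Under median scaling 6 members were higher and 0 lower. The share of all tested probes called under that scaling is not given here, so those 2 counts are a description only. Over the 44 members the median log2 fold change was 0.07, with 31 above 0, beside 0.01 over all tested probes, of which 51.9% lay above 0. Under median scaling the median was 0.067 over the members and 0.080 over all tested probes, so the members' median did not exceed the background there.

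**Figure D1:**
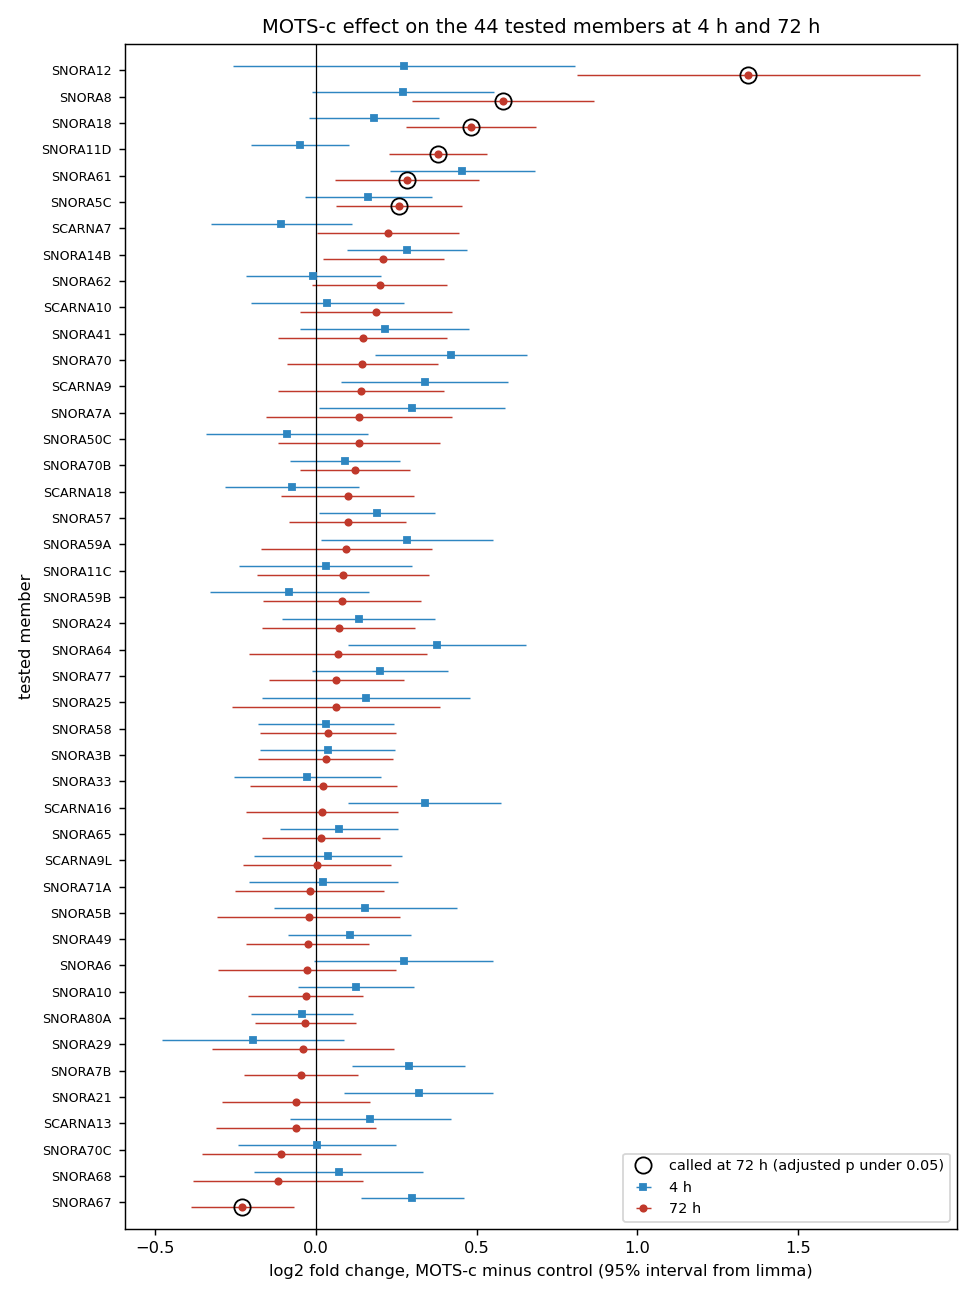
Log2 fold change of MOTS-c over control (x axis) with its 95% interval from limma for each of the 44 tested members (y axis), at 4 h (squares) and 72 h (dots), ordered by the change at 72 h. Rings mark the 7 members called at 72 h, SNORA12 lies farthest to the right at 1.35, and at 4 h 35 of the 44 estimates lie above 0 with none called.

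SNORA12 is an RNA of 147 bases at chr10:100237156-100237302, within CWF19L1, a gene named for its likeness to a yeast splicing factor. On the normalized log2 scale its level in 72 h controls ran from 5.16 to 6.94 with a median of 6.42. In 72 h MOTS-c cells it ran from 7.31 to 7.86 with a median of 7.64. Every treated array was thus above every control array, and the treated arrays also lay close together. At 4 h the levels overlapped, from 5.13 to 6.78 (median 6.26) in controls and from 5.83 to 7.05 (median 6.55) in MOTS-c cells. The log2 fold change was 1.35 at 72 h (SE 0.26, n = 6 per group, limma adjusted p = 0.000139) and 0.27 at 4 h (SE 0.26, adjusted p = 0.713). The probe was detected on 5 of 6 arrays in either control group and on all 6 in either MOTS-c group. The difference between the 72 h and the 4 h effect was 1.07 (SE 0.37, adjusted p = 0.026), which lost its call without replicate 1 of the 4 h controls, replicate 6 of the 4 h MOTS-c cells or replicate 2 of the 72 h controls, the lowest control array, and in a fit with no detection filter.

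SNORA8 and SNORA18 both lie in TAF1D, which encodes a subunit of the factor that recruits RNA polymerase I to ribosomal DNA. SNORA8 is annotated at chr11:93732361-93732499 and SNORA18 at chr11:93733466-93733597. The level of SNORA8 ran from 5.41 to 5.75 (median 5.64) in 72 h controls and from 5.95 to 6.50 (median 6.23) in 72 h MOTS-c cells. That of SNORA18 ran from 6.73 to 7.25 (median 7.01) and from 7.32 to 7.63 (median 7.53) in the same groups. Neither RNA showed any overlap between treated and control arrays at 72 h. The log2 fold changes were 0.58 for SNORA8 (SE 0.14, limma adjusted p = 0.00117) and 0.48 for SNORA18 (SE 0.10, adjusted p = 0.000279). At 4 h they were 0.27 (SE 0.14, adjusted p = 0.431) and 0.18 (SE 0.10, adjusted p = 0.466), with overlapping groups in which SNORA8 was detected on 3 of 6 control and 6 of 6 MOTS-c arrays. The differences between the 72 h and 4 h effects, 0.31 for SNORA8 (adjusted p = 0.228) and 0.30 for SNORA18 (adjusted p = 0.0998), did not pass the test. SNORA25, another RNA of TAF1D, was detected on all 24 arrays and had a log2 fold change of 0.06 at 72 h (SE 0.16, adjusted p = 0.775), with overlapping groups. Of the other TAF1D RNAs, SNORA1 and SNORA40 were detected on no array and SNORA32 on 3.

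SNORA11D, annotated at chrX:52190622-52190748 within MAGED4, has near-identical copies among the SNORA11 genes, so its probe may read more than 1 locus. Its level ran from 7.29 to 7.47 (median 7.43) in 72 h controls and from 7.63 to 8.02 (median 7.75) in 72 h MOTS-c cells. At 4 h it ran from 7.99 to 8.30 (median 8.13) in controls and from 7.93 to 8.30 (median 8.07) in MOTS-c cells. The median of the treated arrays at 72 h lay between that of the 72 h controls and those of the 4 h groups, and the highest treated array lay within the 4 h ranges. The log2 fold change was 0.38 at 72 h (SE 0.07, limma adjusted p = 0.000161) and -0.05 at 4 h (SE 0.07, adjusted p = 0.836), and these 2 effects differed by 0.43 (SE 0.11, adjusted p = 0.00255). SNORA11C, whose sequence is close to that of SNORA11D, had a log2 fold change of 0.08 at 72 h and was not called. Its probe was detected at 72 h on 3 of 6 control and 6 of 6 MOTS-c arrays, with mean levels of 5.38 and 5.46. Whether so weak a signal limited the change that SNORA11C could show was not tested. No probe for MAGED4 passed the detection filter.

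The remaining 3 calls at 72 h were smaller and their groups overlapped. SNORA61, in the noncoding host gene SNHG12, ran from 7.40 to 7.79 (median 7.68) in controls and from 7.77 to 8.05 (median 7.94) in MOTS-c cells at 72 h. Only 1 treated array lay within the control range, and the log2 fold change was 0.28 (SE 0.11, limma adjusted p = 0.0363). The call was lost without any 1 of 7 of the 72 h arrays, with adjusted p-values up to 0.0978, and in a fit with no detection filter. SNORA5C, in TBRG4, which encodes a mitochondrial RNA-binding protein, ran from 5.27 to 5.78 (median 5.58) and from 5.70 to 5.90 (median 5.83). Its log2 fold change was 0.26 (SE 0.10, adjusted p = 0.0305), and this call was lost without any 1 of 6 arrays, under median scaling and with the deposited scores. SNORA67, in EIF4A1, which encodes a translation initiation helicase, was the member that fell, from 8.68 to 8.92 (median 8.81) in controls to 8.44 to 8.73 (median 8.54) in MOTS-c cells. Its log2 fold change was -0.23 (SE 0.08, adjusted p = 0.0197), and the call was lost under median scaling, with the deposited scores and without replicate 6 of the 72 h MOTS-c cells.

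**Figure D2:**
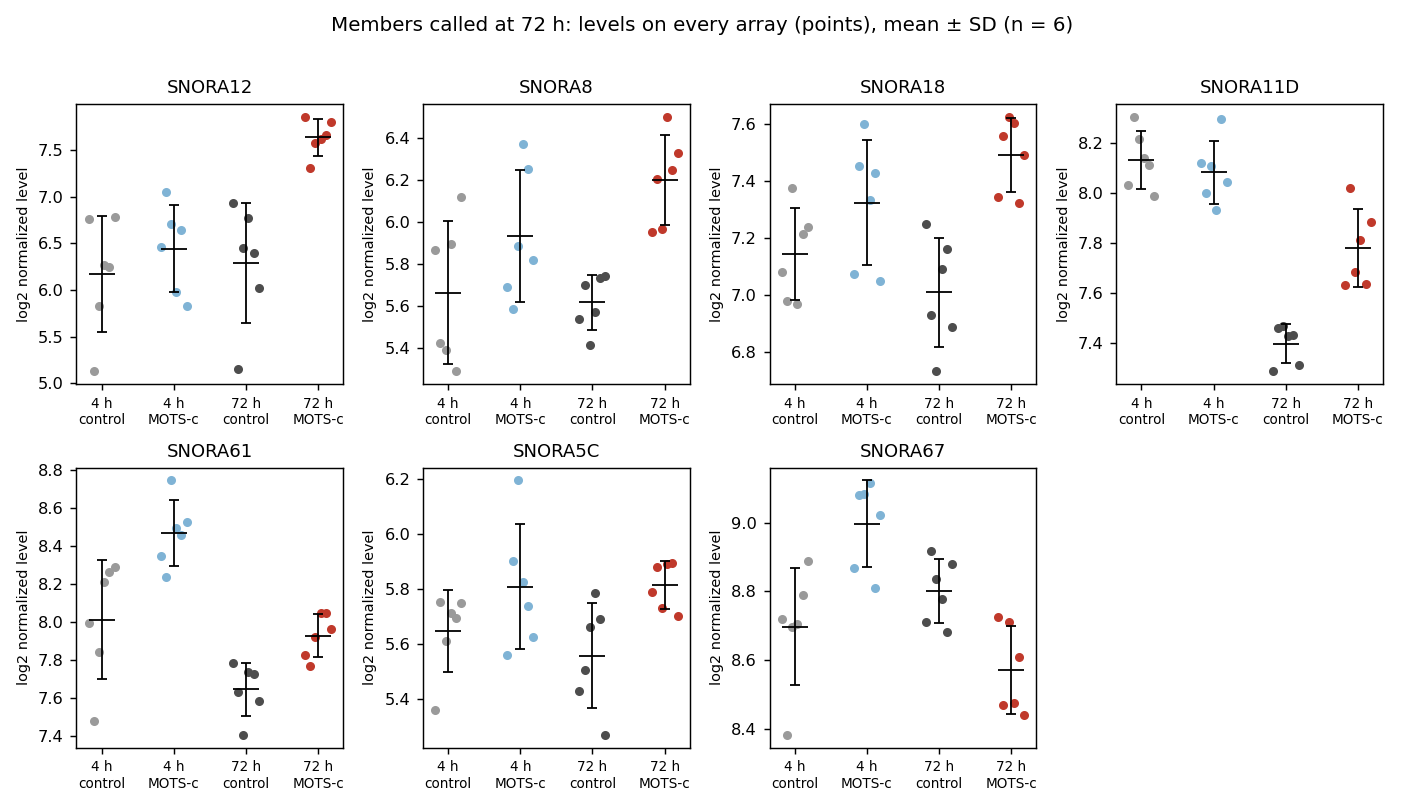
Normalized log2 level (y axis, its range set per panel) of the 7 members called at 72 h on each of the 24 arrays (points), by group (x axis), with the mean and SD of the 6 arrays of a group (bars). The 72 h MOTS-c arrays lie above all 72 h control arrays for SNORA12, SNORA8, SNORA18 and SNORA11D, while SNORA61, SNORA5C and SNORA67 overlap.

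The SCARNA members were described individually although none was called at 72 h. SCARNA7, also known as U90, guides methylation of U1 RNA. Its level ran from 5.38 to 5.94 (median 5.46) in 72 h controls and from 5.62 to 6.03 (median 5.76) in 72 h MOTS-c cells, a log2 fold change of 0.22 (SE 0.11, 95% interval 0.00 to 0.44, limma adjusted p = 0.0933). It passed the test only without replicate 6 of the 72 h controls, the highest of them. SCARNA10, also known as U85, guides both kinds of modification of U5 RNA. It ran from 7.42 to 8.05 (median 7.90) in 72 h controls and from 7.77 to 8.11 (median 8.02) in treated cells, a log2 fold change of 0.19 (SE 0.12, 95% interval -0.05 to 0.42, adjusted p = 0.198). Under median scaling, and with the deposited scores, SCARNA10 passed the test. SCARNA9, which guides methylation of U2 RNA, was detected on 1 of 6 arrays in either 72 h group, and its log2 fold change was 0.14 (SE 0.13, adjusted p = 0.397). For SCARNA13 (U93), SCARNA16, SCARNA18 and SCARNA9L the log2 fold changes at 72 h were -0.06, 0.02, 0.10 and 0.00, with adjusted p-values of 0.711, 0.913, 0.462 and 0.983.

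At 4 h no member was called, with limma adjusted p-values of 0.117 and above, and 0.0168% of all tested probes were called, 3 probes that were all lower. At an unadjusted p under 0.05 there were 12 members (27.3%, against 12.2% of all tested probes), all of them with estimates above 0. Among the 12, SNORA7A was detected at 4 h on 0 of 6 control and 3 of 6 MOTS-c arrays, and SNORA57 on 3 and 6. Without the 4 h MOTS-c arrays neither would have passed the detection filter. Passing through that group favours an estimate above 0, so the count is a description. Estimates without the detection filter are given further below. Estimates lay above 0 for 35 of the 44 members, with a median log2 fold change of 0.14, beside 50.4% of all tested probes and a median of 0.00. The C/D box RNAs (SNORD genes), the other large class of small nucleolar RNAs, gave 52 of 58 above 0 and a median of 0.16. Without replicate 2 of the 4 h controls, on which 25 members were detected, 30 of the 44 members lay above 0 with a median of 0.09. The groups also differed in members detected per array, with a median of 37.5 in 4 h controls and 42.5 in MOTS-c cells, and the part of detection in these estimates was not tested. The 3 members with the smallest p at 4 h were SNORA61, SNORA67 and SNORA70.

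SNORA61 ran from 7.48 to 8.29 (median 8.10) in 4 h controls and from 8.24 to 8.75 (median 8.48) in MOTS-c cells, with 5 of 6 treated arrays above every control. Its log2 fold change was 0.46 (SE 0.11, limma adjusted p = 0.117). SNORA67 ran from 8.38 to 8.89 (median 8.71) and from 8.81 to 9.12 (median 9.05), a log2 fold change of 0.30 (SE 0.08, adjusted p = 0.155). SNORA70, which lies in the ribosomal protein gene RPL10 and has close copies elsewhere, ran from 6.87 to 7.43 (median 7.30) and from 7.22 to 8.07 (median 7.72), with a log2 fold change of 0.42 (SE 0.12, adjusted p = 0.171). All 3 had overlapping groups. Under the alternatives run, the adjusted p-values of these 3 ranged from 0.0531 to 0.674.

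The test of whether the MOTS-c effect differed between 72 h and 4 h called 4 of the 44 members, against 32.7% of all tested probes. Of the members 2 were higher and 2 lower, against 16.4% and 16.2% of all tested probes. Under median scaling 2 were higher and 1 lower, and the share of all tested probes called under that scaling is not given here. SNORA12 and SNORA11D had the more positive effect at 72 h, as given above. For SNORA67 the effect went from 0.30 at 4 h to -0.23 at 72 h, a difference of -0.53 (SE 0.11, limma adjusted p = 0.000627). SNORA7B, which lies in the pseudogene RPL32P3 and resembles SNORA7A, had an effect of 0.29 at 4 h (adjusted p = 0.214) and -0.05 at 72 h (adjusted p = 0.695). Its difference was -0.33 (SE 0.12, adjusted p = 0.0357), and this call was lost without any 1 of 11 arrays and under 4 other settings, median scaling among them. Levels of SNORA7B ran from 6.53 to 6.92 in 4 h controls, 6.81 to 7.21 in 4 h MOTS-c cells, 6.68 to 7.06 in 72 h controls and 6.75 to 7.00 in 72 h MOTS-c cells, so all 4 groups overlapped.

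Between 4 h and 72 h in control cells 12 members fell and 1 rose. Of all tested probes 61.7% were called in this comparison, 31.4% higher and 30.3% lower, so that the members' 12 of 44 lower (27.3%) was near the background while 1 of 44 higher (2.27%) was below it. The 5 called members with the largest change were SNORA11D, SCARNA9, SNORA14B, SNORA33 and SNORA41, and all 5 fell. The others that fell were SNORA59B, SNORA61, SNORA57, SNORA29, SCARNA7, SNORA10 and SCARNA18, by 0.23 to 0.39 on the log2 scale, and SNORA7B rose by 0.24. SCARNA9, SNORA57 and SNORA29 were detected mostly at 4 h, on 5, 3 and 4 of 6 control arrays there and on 1, 1 and 2 of 6 at 72 h, and none of the 3 would have passed the detection filter on the 72 h arrays alone. Passing through the 4 h groups favours a lower 72 h level, so their calls are given as a description. In MOTS-c cells 11 members were called over the same interval, SNORA12 higher and 10 lower, against 36.8% of all tested probes (19.8% higher and 17.1% lower). The 10 included SCARNA9 and SNORA57, each detected on 6 of 6 MOTS-c arrays at 4 h and 1 of 6 at 72 h, so the same limit holds for their calls. These comparisons over time share their 72 h arrays with the comparison of MOTS-c and control at 72 h.

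SNORA11D fell by 0.73 in control cells (SE 0.07, limma adjusted p = 3.09e-09), with no overlap between the 4 h and 72 h control levels given above. In MOTS-c cells it fell by 0.30 (SE 0.07, adjusted p = 0.00214). SCARNA9 ran from 5.36 to 6.27 (median 5.67) in 4 h controls and from 4.84 to 5.33 (median 5.15) in 72 h controls, which did not overlap. It was detected on 5 of 6 control arrays at 4 h and 1 of 6 at 72 h, so the 72 h level was mostly not above background and the difference of its means, -0.67 on the log2 scale, does not give the size of the change. In MOTS-c cells it ran from 5.89 to 6.30 at 4 h and from 5.06 to 5.37 at 72 h, where it was again detected on 1 of 6 arrays, against 6 of 6 at 4 h. CEP295, the gene that contains SCARNA9 and encodes a centrosome protein, fell by 0.70 in control cells over the same time (SE 0.10) and by 0.26 in MOTS-c cells (SE 0.10, adjusted p = 0.0446).

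SNORA14B, in TOMM20, which encodes a receptor for mitochondrial protein import, ran from 6.06 to 6.55 (median 6.30) in 4 h controls and from 5.63 to 5.91 (median 5.71) in 72 h controls. It fell by 0.58 (SE 0.09, limma adjusted p = 5.04e-06), whereas the TOMM20 transcript rose by 0.18 (SE 0.07, adjusted p = 0.017). SNORA33, in the ribosomal protein gene RPS12, ran from 5.30 to 6.15 (median 5.86) and from 5.19 to 5.35 (median 5.34). It fell by 0.52 (SE 0.11, adjusted p = 0.000257), with RPS12 at 0.01 (SE 0.05, adjusted p = 0.822). SNORA41, in EEF1B2, which encodes a translation elongation factor subunit, ran from 5.48 to 6.56 (median 5.89) and from 5.36 to 5.72 (median 5.53), and fell by 0.42 (SE 0.13, adjusted p = 0.0057). The lowest 4 h control arrays of SNORA33 and SNORA41 lay within their 72 h range, while SNORA14B did not overlap.

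**Figure D3:**
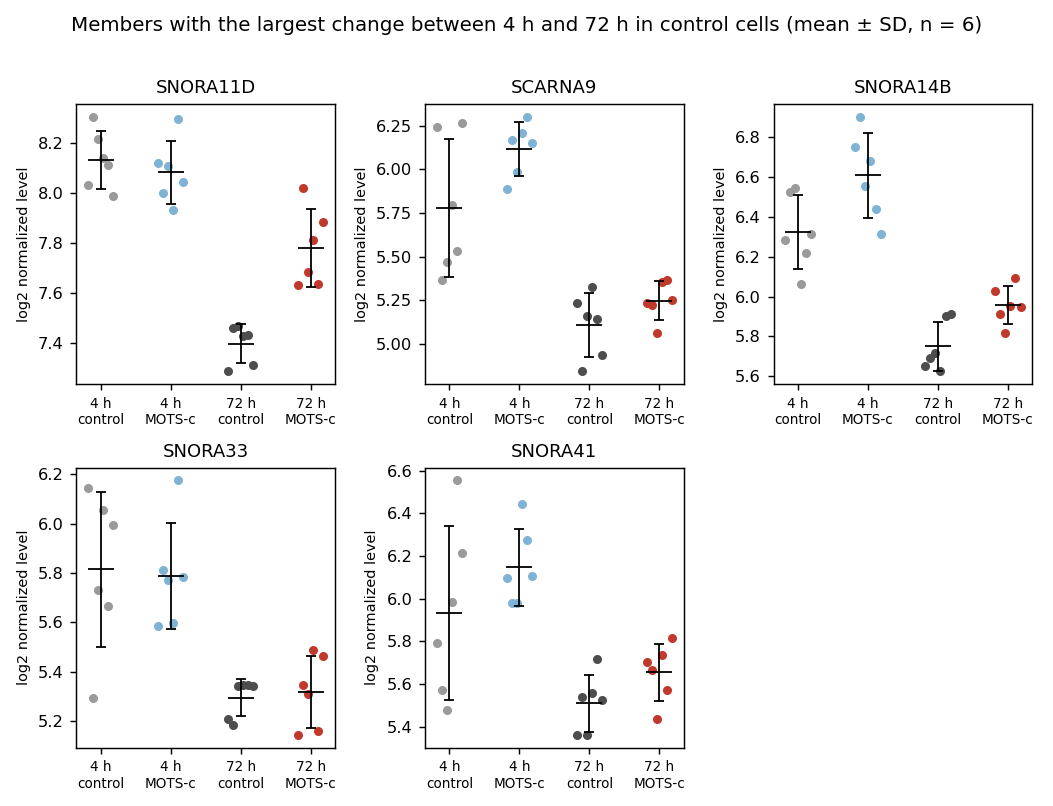
Normalized log2 level (y axis, its range set per panel) of the 5 called members with the largest change between 4 h and 72 h in control cells, on each array (points) by group (x axis), with the mean and SD of 6 arrays (bars). SNORA11D, SCARNA9 and SNORA14B have 72 h control arrays entirely below the 4 h controls, and SNORA11D lies higher at 72 h with MOTS-c than without.

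Since most of these RNAs are cut from introns, each was set beside the gene that contains it by its annotated position on GRCh38.p14. The annotation used gave no strand for the small RNAs. A containing gene was assigned to 42 of the 44 tested members, and 35 members had one that was itself measured, which made 31 different genes. At 72 h 6 of these 31 genes rose with MOTS-c and 3 fell, where 22.1% of all tested probes were higher and 21.4% lower. The difference between the log2 change of the RNA and that of its containing gene was tested over the 12 arrays at 72 h with an exact two-sided permutation test, adjusted over 35 pairs, whose smallest possible p is 0.00216. This test was added after the values of members and genes had been seen. It called 8 pairs, in 7 of which the small RNA had the more positive change. SNHG12, SNHG17 and NCAPD2, which contain RNAs of those 7, themselves fell. No share over pairs of other probes is given here, so the count is a description of these pairs.

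SNORA12 changed by 1.35 while CWF19L1 changed by 0.08 (SE 0.05, limma adjusted p = 0.217), a difference of 1.27 (SE 0.27, exact permutation adjusted p = 0.0126). For SNORA8 and SNORA18 the difference from TAF1D was 0.65 (SE 0.11) and 0.55 (SE 0.11), both with an exact permutation adjusted p of 0.0126. TAF1D itself changed by -0.07 (SE 0.13, limma adjusted p = 0.685), and its 2 probes gave -0.07 and 0.12. In these 3 RNAs the containing gene did not pass the test while the RNA did. SNHG12 fell by 0.80 (SE 0.12, limma adjusted p = 3.72e-06) while SNORA61 rose, a difference of 1.09 (SE 0.13, exact permutation adjusted p = 0.0126). The mean level of the SNHG12 probe was 7.03 in 4 h controls, 8.60 in 72 h controls and 7.79 in 72 h MOTS-c cells, so that SNHG12 and SNORA61 also moved in opposite directions with time in control cells. SNORA71A changed by -0.02 while SNHG17, another noncoding host gene, fell by 0.57 (SE 0.08). The difference was 0.55 (SE 0.13, exact permutation adjusted p = 0.0126). SNORA71A ran from 5.37 to 5.80 in 72 h controls and from 5.37 to 5.63 in 72 h MOTS-c cells. Its probe was detected on 5 of 6 arrays in either 72 h group, whereas SNHG17 had a mean level of 11.17 in 72 h controls. Whether so weak a signal limited the fall that SNORA71A could show was not tested.

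The difference was 0.40 for SCARNA10 over NCAPD2 (SE 0.12, exact permutation adjusted p = 0.0324), where NCAPD2, a condensin subunit gene, fell by 0.21. It was 0.30 for SNORA5C over TBRG4 (SE 0.09, exact permutation adjusted p = 0.0472), and that call was lost without background correction, under median scaling and without any 1 of 6 of the 12 arrays. SNORA70C was the pair with the opposite sign, at -0.37 (SE 0.08, exact permutation adjusted p = 0.0126), since ASTN2 rose by 0.27 while SNORA70C changed by -0.11. The 3 probes for ASTN2 ranged from -0.16 to 0.27, so that this pair depends on the probe chosen. For SNORA67 over EIF4A1 the difference was -0.30 (SE 0.11, exact permutation adjusted p = 0.0894).

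**Figure D4:**
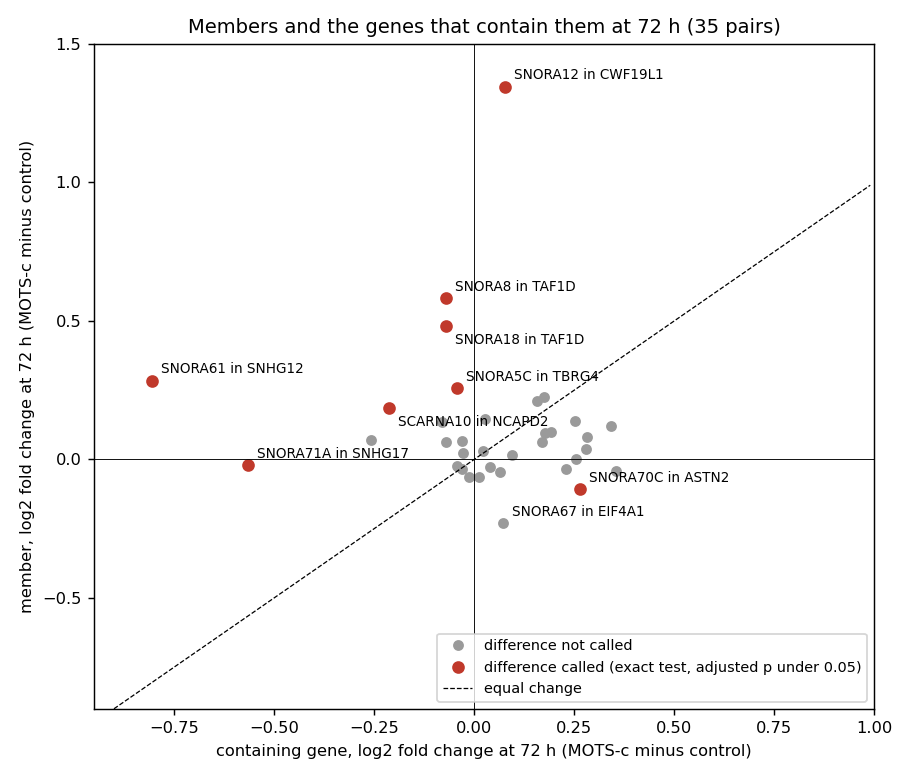
Log2 fold change at 72 h, MOTS-c minus control, of each small RNA (y axis) against that of the gene that contains it (x axis), for 35 pairs; the dashed line marks equal change. Filled red points are the 8 pairs called by the exact permutation test, and SNORA12 (1.35 against 0.08 for CWF19L1) and SNORA61 (0.28 against -0.80 for SNHG12) lie farthest above the line.

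Genes of the proteins that act with these RNAs were counted in the same fit. None of them was called at 4 h. At 72 h 3 of the 9 measured genes of H/ACA particle proteins and assembly factors fell and none rose, beside 21.4% of all tested probes lower and 22.1% higher. The assembly factor gene SHQ1 fell by 0.50 (SE 0.08), and the core protein genes NOP10 and NHP2 fell by 0.38 (SE 0.07) and 0.36 (SE 0.07). DKC1 and GAR1 changed by -0.04 and 0.00 and were not called. The list's median log2 fold change was -0.08. In control cells 6 of the 9 rose and 1 fell between 4 h and 72 h, beside 31.4% of all tested probes higher and 30.3% lower.

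Of 12 stand-alone pseudouridine synthases, which modify RNA without a guide RNA, 11 were measured, 7 fell at 72 h and none rose, with a median log2 fold change of -0.51, where 22.1% of all tested probes were higher and 21.4% lower. PUS1, which acts on transfer RNA, fell by 0.86 (SE 0.07), and TRUB2 and RPUSD1 fell by 0.72 (SE 0.08) and 0.69 (SE 0.08). In control cells 9 of the 11 rose between 4 h and 72 h and none fell, beside 31.4% higher and 30.3% lower of all tested probes. Of 17 Cajal body genes 15 were measured, of which 4 rose and 7 fell at 72 h, with a median of 0.01. GEMIN8 and GEMIN6, of the complex that loads Sm proteins on spliceosomal RNAs, fell by 0.89 (SE 0.07) and 0.51 (SE 0.06), and TOE1, a deadenylase gene, fell by 0.46 (SE 0.08). WRAP53, whose protein carries small Cajal body RNAs to Cajal bodies, fell by 0.57 (SE 0.11), while COIL, the gene of the Cajal body protein coilin, changed by 0.01.

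Among 22 genes of RNA trimming and decay 6 rose and 4 fell at 72 h, with a median of 0.02, and the share called was near the 43.5% of all tested probes. EXOSC4 and EXOSC5, both of the exosome core, fell by 0.79 (SE 0.09) and 0.50 (SE 0.08). PARN, which trims the tails of H/ACA precursors, rose by 0.44 (SE 0.06). Among 24 genes of spliceosomal particle proteins 5 rose and 2 fell, with a median of 0.08, including SNRPD1 (0.41, SE 0.07) and SNRPA1 (0.36, SE 0.06) among those that rose and PRPF4 (-0.28, SE 0.06) among those that fell. Of the C/D box RNAs 22 of 58 were called at 72 h, 18 higher and 4 lower, beside 7 of 44 members, and the difference in share was not tested.

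**Figure D5:**
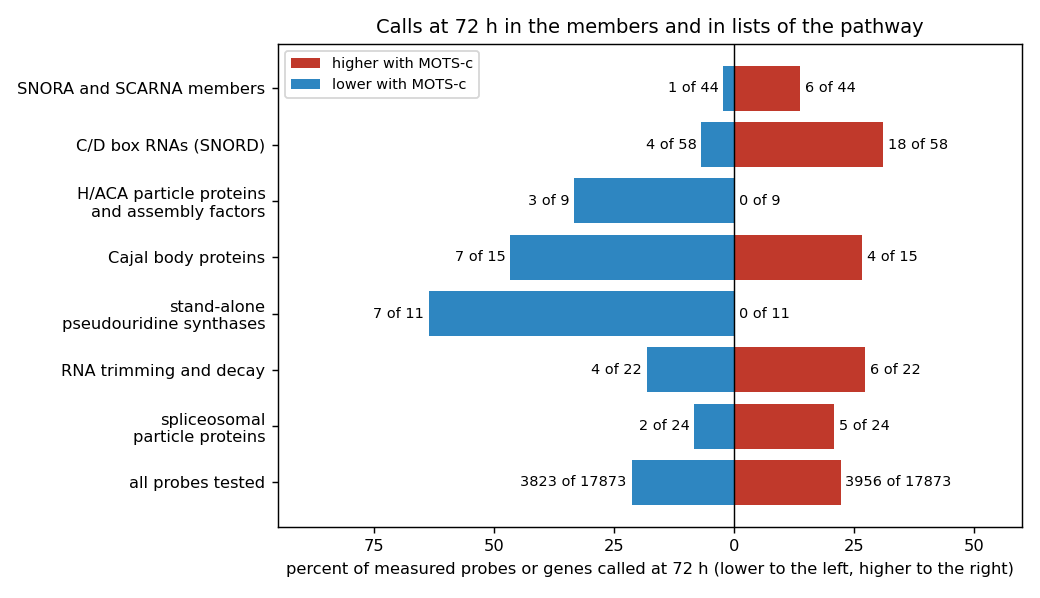
Percent of measured probes or genes called at 72 h (x axis), lower with MOTS-c to the left and higher to the right, for the members, the C/D box RNAs, 5 gene lists of the pathway and all tested probes (y axis), with the counts beside the bars. The members have 6 of 44 higher and 1 of 44 lower, and the stand-alone pseudouridine synthases 0 of 11 higher and 7 of 11 lower.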

How the data were processed

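Per probe (47323) and array (24), the deposited data give a mean bead intensity that was not scaled between arrays, read with GenomeStudio 2011.1 per the submitters' processing notes. Each deposited intensity comes with a detection p-value against the array's negative controls. The authors also deposited a score, found here to be the log10 intensity as a Z score per array (largest difference 5e-10). Gene symbols came from the dated platform annotation, in which 30113 probes have 1 symbol and 8 have several.

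Intensities were background-corrected and quantile-normalized with neqc (offset 16) in R 4.3.3 with limma 3.58.1, which gave log2 values. Probes detected on at least 6 arrays and with 1 symbol (17873 probes, 13283 genes) entered 1 linear model with a mean per group over all 24 arrays, with 20 residual degrees of freedom. Tests were two-sided with Benjamini-Hochberg adjustment over all 17873 probes. Fold changes carry the model's SE, with n = 6 arrays per group. The number of arrays limits the precision. The members, gene lists and tests were chosen with earlier results of these data known. Named are up to 10 called members at 72 h, up to 5 each in the test of the difference between times and in the time comparison of controls, the 3 smallest p at 4 h, all tested SCARNA genes, their containing genes, and the 3 smallest p of each pathway list. DKC1, GAR1, WRAP53, COIL and the members outside that rule were added after their values were seen. A pathway or containing gene with several probes was taken by the probe with the highest mean. The model was tested on simulated data. Replicate numbers were not taken as pairs, since correlations of deviations within a number ranged from -0.24 to 0.08 (4 h) and from -0.15 to 0.14 (72 h). Alternatives covered background, scaling, filters, probes, weights, variance prior, block, arrays and the deposited scores. Figures used Python 3.11.15 and matplotlib 3.10.9.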

Additional observations from a re-analysis of the deposited data

Results flagged for a closer look

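Among the 76 group levels of named members that were examined, 5 held an array far from the other 5 by Dixon's test, and chance alone flags about 1 in 20. SNORA5C in replicate 1 of the 4 h controls was at 5.36, below the other controls at 5.61 to 5.75. SCARNA16 in replicate 6 of the 4 h controls was at 6.44, above the others at 5.87 to 6.02. SCARNA10 in replicate 5 of the 4 h MOTS-c cells was at 7.55, below the others at 7.86 to 8.03. SCARNA7 stood apart in replicate 2 of the 4 h controls, at 6.28 against 5.62 to 5.86, and in replicate 6 of the 72 h controls, at 5.94 against 5.38 to 5.58.

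The effect of MOTS-c differed between 72 h and 4 h, by limma's test of that difference, in 4 of the 44 tested members. This was a smaller share than the 32.7% of all tested probes. The differences on the log2 scale were 1.07 for SNORA12, -0.53 for SNORA67, 0.43 for SNORA11D and -0.33 for SNORA7B. The calls for SNORA12 and SNORA7B were lost under some alternatives and without some single arrays, as given above.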

How the results depend on the processing

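With detection required at p under 0.01 on all 24 arrays, 12 members were tested. Of these 12, the calls numbered 4 at 72 h, 5 for time in controls and 4 for time in MOTS-c cells. In the main fit they numbered 7, 13 and 11 of 44. Fewer members tested lowers these counts, so the lower counts do not show that a smaller share was called. With the replicate number within a time as a block, the calls numbered 0 at 4 h, 7 at 72 h, 4 for the difference between times, 14 and 12, and SNORA7B lost its call for the difference between times. No partner array was the best match of its number (0 of 6 at either time). Leaving out 1 array at a time gave 0 to 0 calls at 4 h, 5 to 8 at 72 h, 2 to 5 for the difference between times (2 without replicate 2 of the 72 h controls), 11 to 15 for time in controls, 11 to 13 in MOTS-c cells, and 6 to 11 pairs of RNA and containing gene. At 72 h SNORA12, SNORA8, SNORA18 and SNORA11D kept their calls under every alternative in which they were tested. No direction that was called reversed. The shares of all tested probes called under these alternatives are not given here, so the counts above describe the members only. Without the detection filter the median at 4 h was 0.03, with 83 of 126 members above 0. The alternative with the slide as a block was not run, since no slide is given in the sources used here, and a fit on the compared arrays alone does not apply to the difference between times. Only 19 of the 44 tested members were detected on all 24 arrays, and low signal limits the others.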

Other observations

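The 5 probes whose levels over the 24 arrays were most like those of SNORA12 were for C2orf48, SELENOK, NPY, NOCT and FER, with Pearson correlations of 0.87, 0.84, 0.81, 0.81 and 0.79. The arrays share their groups, so these values describe a likeness over 4 groups of 6 arrays. Their log2 fold changes at 72 h were 0.60, 0.27, 0.47, 0.31 and 0.28, which the choice by likeness to SNORA12 in part fixes, so no test is given.

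In a fit with no detection filter, 82 further member probes were tested. None of them was called at 4 h and 1, SNORA50A, was called at 72 h, lower with MOTS-c, although its probe was detected on no array.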
